A study of Mus musculus with 6 samples.

Results

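Thbs1, the gene of thrombospondin-1, and the genes of its cell surface receptors, Cd47, Itgav, Itgb1 and Lrp1, were followed in pancreatic islets of obese mice. The genes were taken by symbol from a table of estimated read counts per gene, in which 4 of the 5 were found among 11106 genes listed: Thbs1, Cd47, Itgav and Itgb1. Lrp1 was not analysed here. All 4 passed the filter on low counts. The choice by symbol used no measured values, but it was made with earlier results of these data known. The samples were islets of 6 male mice in 2 groups of 3, numbered knockout 11, 12 and 13 and floxed 8, 18 and 19. The knockout mice carried Ern1fl/fl with the VE-cadherin-CreERT2 transgene, so that Ern1, the gene of IRE1α, was deleted in cells in which that endothelial promoter is active. The floxed mice were littermates with Ern1fl/fl and no Cre. Both groups received 2 mg tamoxifen on 5 days in a row at the age of 4 weeks, and both were kept on high-fat chow (60% of calories as fat) for 16 weeks from the age of 8 weeks. Whole islets were sequenced, in which the endocrine, exocrine and other cells still carry Ern1, so no value here is a value of endothelial cells. Fewer cells of a type and less RNA per cell cannot be told apart in such samples.

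Thrombospondin-1 is a large trimeric glycoprotein of the extracellular matrix that is released by platelets, endothelial cells, fibroblasts and other cells, and it inhibits the growth of vessels. Separate parts of the protein bind separate receptors. Its type 1 repeats bind the scavenger receptor CD36 and activate latent TGF-beta, an arginine-glycine-aspartate tripeptide binds integrins that hold the alpha v chain (Itgav), and the carboxy-terminal domain binds CD47, which blunts nitric oxide signalling in vessels. Its amino-terminal domain binds integrins with the beta 1 chain (Itgb1) and, with calreticulin, the endocytic receptor LRP1. IRE1α senses stress in the endoplasmic reticulum, and its RNase domain cuts Xbp1 mRNA at a pair of stem-loops and degrades selected other mRNAs. The study is titled for a role of endothelial IRE1α in thrombospondin-1 mRNA decay, and the question here is how the mRNA of this ligand and of its receptors stood when the endothelial enzyme was deleted.

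The stretches of the Thbs1 mRNA that encode the parts of the protein known to contact receptors are shown because they tie the ligand to the genes measured here. They come from the transcript Thbs1-201 of GENCODE (GRCm38), which has 5848 bases in 22 exons, with 228 bases before, 3513 bases within and 2107 bases after the coding sequence. Capitals mark the codons of the named peptide, found by translating the coding sequence, and codons are counted from 1 at the start codon.
TGF-beta-activating peptide, codons 431 to 434, across the junction of exons 8 and 9: gagtgtgacAAAAGATTTAAAcaggatggt
CD36-binding peptide, codons 448 to 453, exon 9, chr2:118118206-118118223: tcgtccTGTTCTGTGACCTGTGGTgacggt
CD36-binding peptide, codons 505 to 510, exon 10, chr2:118118687-118118704: gacatcTGCTCTGTCACCTGTGGAggagga
Integrin-binding tripeptide, codons 927 to 929, exon 18, chr2:118122882-118122890: ggtgatggcCGAGGTGACgcctgcaaa
CD47-binding peptide, codons 1035 to 1042, exon 19, chr2:118123372-118123395: agcCGCTTCTACGTTGTGATGTGGAAAcaa
All of these lie on the plus strand, and the contacts for CD36, integrins and CD47 follow one another along the mRNA in that order. The CD47-binding peptide shown is the first of those searched, and the second, FIRVVMYEGKK, was not found. Searched in the same way, Itgb1 held both NPxY motifs of its cytoplasmic tail, through which beta chains bind talin and kindlin. They are shown because genes of that machinery are described further on.
Itgb1 tail, codons 780 to 783, exon 16, chr8:128732029-128732040: acgggtgaaAATCCTATTTACaagagtgcc
Itgb1 tail, codons 792 to 795, exon 16, chr8:128732065-128732076: actgtggtcAATCCGAAGTATgagggaaaa

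A cleaved site of Xbp1 mRNA holds the hexamer CTGCAG in the loop of a hairpin, and this hexamer was searched in the 4 mRNAs. Xbp1 mRNA, which is cut at a pair of stem-loops, held it 1 time, so the search can miss sites with other letters. The hexamer reads the same on both strands, so 1 search covers both. Thbs1 held it 5 times, once before, 3 times within and once after the coding sequence, or 0.855 per kb. Itgb1 held 3 in 3815 bases, Itgav 3 in 7054 bases and Cd47 1 in 5250 bases. The hexamer is common: 98.4% of the 773 tested genes whose transcript was within 10% of the length of Thbs1 held it, with a median of 4 copies, and 48.8% of them had at least 5. Of the 3 coding copies in Thbs1, 2 are shown beside the Xbp1 site, with capitals on the hexamer.
Xbp1, exon 4, chr11:5524302-5524307: ctatgtgcacctCTGCAGcaggtgcaggcc
Thbs1, exon 5, chr2:118114830-118114835: atcgtgaccactCTGCAGgacagcatccga
Thbs1, exon 17, chr2:118122640-118122645: tgacagagacaaCTGCAGgctggtgcccaa
Windows of 46 bases around each copy were folded with RNAfold. A copy was counted as in a hairpin loop if base 3 of its hexamer was unpaired in one. The Xbp1 copy met this rule, in a loop of 7 bases. Of the 5 Thbs1 copies, 1 met it, in a loop of 3 bases, and it is not among the copies shown. In Itgav 1 copy met it in a loop of 4 bases and in Itgb1 1 copy in a loop of 3. Loops of 3 or 4 bases are too short for the whole hexamer, so part of it lies outside them. These matches describe letters and predicted folds and show no cleavage.

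**Figure D1:**
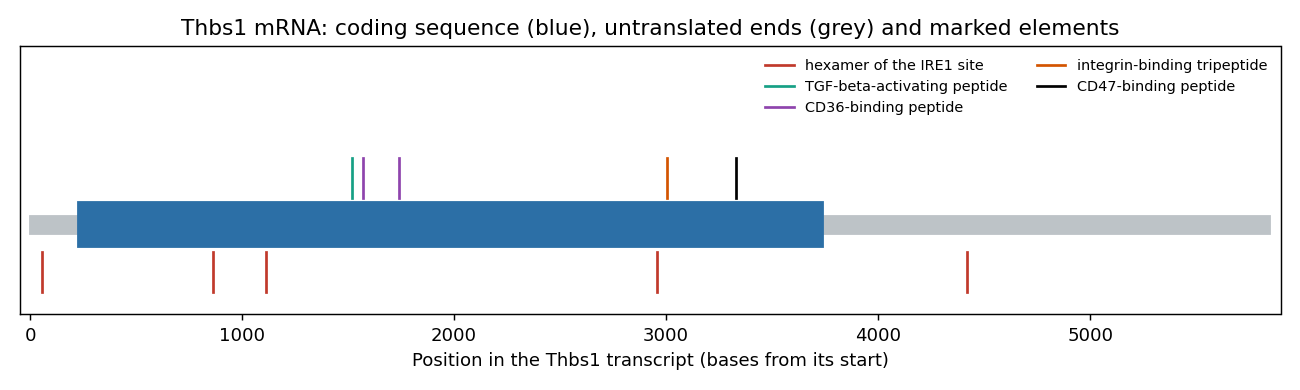
Map of the Thbs1 transcript in bases from its start, with the coding sequence as a blue box, the untranslated ends in grey, the hexamer copies below and the receptor-binding elements above. The 5 hexamer copies are spread over the mRNA, and the elements for TGF-beta activation, CD36, integrins and CD47 lie from codon 431 onward.

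The libraries held between 18470720 and 18957444 counts, so that 1 CPM stood for about 18 to 19 counts, and replicates differed by more than counting noise. Ern1, the deleted gene, measured 41.9, 36.0 and 46.8 CPM over knockout 11, 12 and 13, against 30.1, 44.6 and 46.0 CPM over floxed 8, 18 and 19. Its groups overlapped, and these counts of whole islets sum over all exons and all cells, so they do not check the deletion in endothelial cells. The endothelial markers Cdh5 and Pecam1 were present in every library, at 14.4 to 22.9 and 26.4 to 40.9 CPM. Beta cell markers took the largest share of any cell type list in each library. Knockout 12 stood apart in fibroblast and macrophage genes and floxed 8 in genes of the immediate early response, with values given further on.

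Levels are given as CPM, the share of a gene among the counts of its library, with library sizes scaled by TMM. Thbs1 had the largest difference between the groups among the 4 genes. Its level was 75.5, 189 and 91.7 CPM in knockout 11, 12 and 13 and 27.8, 25.5 and 34.7 CPM in floxed 8, 18 and 19. These levels rest on 1322, 3720 and 1649 counts in the knockout and 480, 532 and 681 counts in the floxed libraries. Every knockout library lay above every floxed library, and knockout 12 stood far above the other knockouts. The floxed libraries kept within a narrow range, at 29.3 ± 4.76 CPM against 119 ± 61.3 CPM in knockout islets (mean ± SD, n = 3 each). On the log2 scale the knockout islets were higher by 2.02 (standard error 0.39), a difference larger than that of 99.6% of the 11080 genes tested. The adjusted p was 0.0948 (edgeR quasi-likelihood test, Benjamini-Hochberg over all genes tested), which missed the threshold of 0.05. Without knockout 12 the log2 fold change was 1.51 and the adjusted p 0.0365, and with DESeq2 the adjusted p was 2.8e-04. Thbs1 did not pass with any other single library left out. Its edgeR adjusted p was 0.0959 without knockout 11 and 0.256 without knockout 13. Without floxed 8, 18 or 19 it was 0.137, 0.281 and 0.296, and with library totals in place of TMM 0.131. The gene lies on chromosome 2 from 118111876 to 118127133, and 208 bases of its exons are overlapped by Gm29233 on the opposite strand, whose reads cannot be told apart from its own where strand was not used in counting.

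Cd47, the transmembrane receptor for the carboxy-terminal domain and a signal against engulfment by macrophages, had a small difference in the same direction that did not pass the test. Its level measured 26.3, 31.8 and 28.4 CPM over knockout 11, 12 and 13, against 23.9, 22.8 and 25.4 CPM over floxed 8, 18 and 19. The groups did not overlap, though the lowest knockout library was close to the highest floxed library. Cd47 averaged 28.8 ± 2.78 CPM with the knockout and 24.0 ± 1.32 CPM without it (mean ± SD, n = 3 per genotype), 19.9% apart. The fitted log2 difference was 0.26 (standard error 0.10), and the adjusted p was 0.224 (edgeR; unadjusted p = 0.0294 in the same test). Without knockout 12 the difference was 0.19. Cd47 lies on chromosome 16 from 49851328 to 49912503. It has splice forms that differ in the cytoplasmic tail, and the gene-level counts sum over them.

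Itgav, the alpha v chain that carries the binding of the integrin tripeptide, showed no separation of the groups. Its level measured 40.3, 37.0 and 47.8 CPM over knockout 11, 12 and 13, against 28.2, 49.7 and 45.7 CPM over floxed 8, 18 and 19. Floxed 8 was the lowest of all 6 libraries and floxed 18 the highest, so the floxed group spanned the whole knockout range. The log2 fold change was 0.0158 with a 95% interval from -0.473 to 0.505 (edgeR adjusted p = 0.980), without floxed 8 it was -0.20 (adjusted p = 0.254), and with library totals in place of TMM it was -0.0991. With the acinar covariate it was 0.77 (adjusted p = 0.569) and with the immediate early covariate 0.72 (adjusted p = 0.0683), both beyond the upper end of that interval. Itgav lies on chromosome 2 from 83722303 to 83806917, and 634 bases of its exons are overlapped by Gm13684 on the opposite strand.

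Itgb1, the beta 1 chain shared by a large family of matrix receptors, had the highest level per length of the 3 receptor genes and showed no separation either. Its level measured 96.7, 104 and 105 CPM over knockout 11, 12 and 13, against 86.3, 109 and 114 CPM over floxed 8, 18 and 19. Floxed 8 was again the lowest library, and floxed 18 and 19 were the highest. The log2 fold change was -0.0206 with a 95% interval from -0.284 to 0.243 (edgeR adjusted p = 0.948). Its sign changed in 5 of the alternatives, among them the acinar and the immediate early covariate, with 0.26 and 0.31. Itgb1 lies on chromosome 8 from 128685654 to 128733579.

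**Figure D2:**
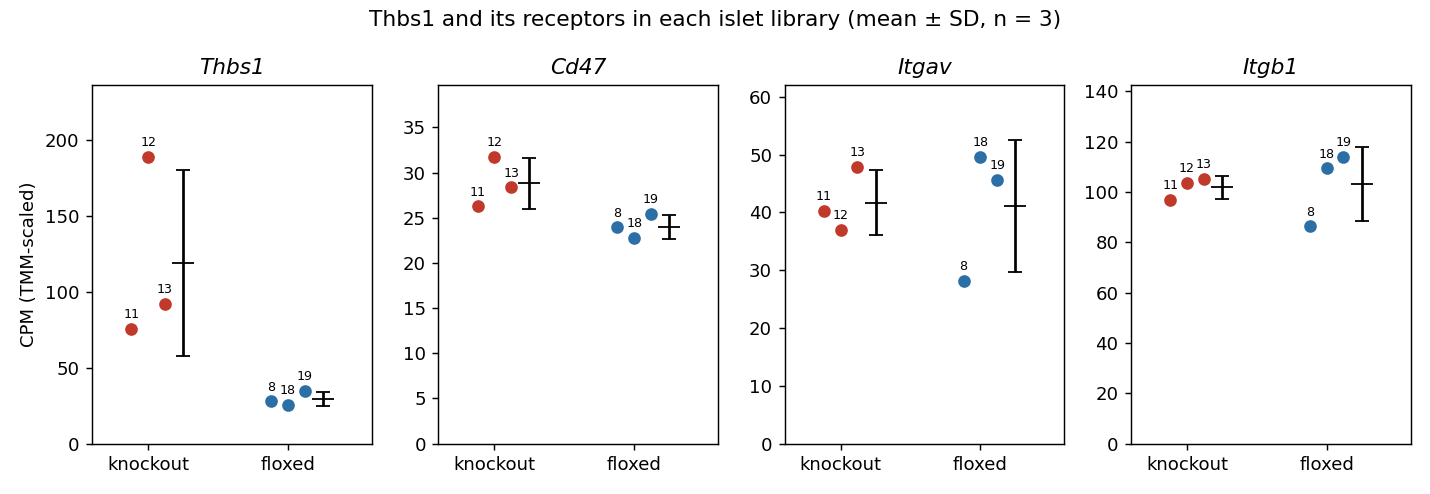
CPM of the 4 genes in each library (points, numbered by mouse) with the group mean and SD (bars, n = 3). Thbs1 and Cd47 do not overlap between the groups, while floxed 8 is the lowest library for Itgav and Itgb1, at 28.2 and 86.3 CPM.

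Of the 11080 genes tested 45 passed the edgeR test (0.406%), 38 higher (0.343%) and 7 lower (0.0632%), and 0 of the 4 genes was among them. At an unadjusted p below 0.05 in the edgeR test stood 1986 genes (17.9%), Thbs1 and Cd47 included. The groups did not overlap for 2695 genes (24.3%), with the knockout higher in 1566 (14.1%) and lower in 1129 (10.2%). Thbs1 and Cd47 were 2 of 4 with the knockout higher, a class to which many genes of the table belong. With DESeq2, Thbs1 passed and the 3 receptors did not, while the count over all genes was 564.

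Levels were set against each other between genes per kb of exon, with the union of the exons of all transcripts as the length. For Itgav this is 10744 bases, against 7054 in the transcript Itgav-201. The order of Thbs1, Itgav and Cd47 in floxed islets depends on which length is used. Itgb1 had 25.3 ± 3.63 CPM per kb in floxed islets, ahead of Thbs1 with 4.83 ± 0.783, Itgav with 3.83 ± 1.06 and Cd47 with 3.83 ± 0.211 CPM per kb (mean ± SD, n = 3 per genotype). On this scale the floxed values of Itgav, from 2.63 to 4.62, overlapped those of Thbs1 (4.21 to 5.71) and Cd47 (3.63 to 4.05), while Thbs1 was above Cd47 in each floxed library. In knockout islets Itgb1 had 24.9 ± 1.10 and Thbs1 19.5 ± 10.1 CPM per kb, with Cd47 at 4.59 ± 0.442 and Itgav at 3.88 ± 0.518 CPM per kb. Thbs1 was above Cd47 and Itgav in every knockout library. It passed Itgb1 in knockout 12 alone, with 31.1 against 25.4 CPM per kb.

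The ligand was then set against each receptor within the same library, as a ratio of their counts with a prior count of 2, which does not depend on how libraries are scaled. A ratio also holds the lengths of both genes, so it is compared between libraries and not between receptors. Thbs1 had 2.87, 5.93 and 3.22 counts for each Cd47 count in knockout 11, 12 and 13 and 1.16, 1.12 and 1.36 in floxed 8, 18 and 19. The floxed libraries lay close together and the knockout libraries all stood above them. The difference of the mean log2 ratios was 1.65, or 3.14-fold, and the lowest knockout ratio was 2.10-fold above the highest floxed ratio.

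The ratio to Itgav was 1.87, 5.09 and 1.92 in knockout 11, 12 and 13 and 0.984, 0.515 and 0.760 in floxed 8, 18 and 19. Here floxed 8 was the highest of its group, since its Itgav level was the lowest. The log2 difference was 1.86, or 3.62-fold. The ratio to Itgb1 was 0.781, 1.82 and 0.873 in the knockout libraries and 0.322, 0.234 and 0.305 in the floxed libraries, with a log2 difference of 1.92, or 3.78-fold. Groups did not overlap in any of the 3 ratios. All 3 share the Thbs1 counts, so they are not independent of each other or of the Thbs1 difference given above. The exact two-sided permutation test gave p = 0.10 for each, which is the smallest value that 3 against 3 libraries allow, and 0.10 after adjustment over the 3 ratios. Without knockout 12 the log2 differences were 1.33, 1.38 and 1.54 for Cd47, Itgav and Itgb1.

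**Figure D3:**
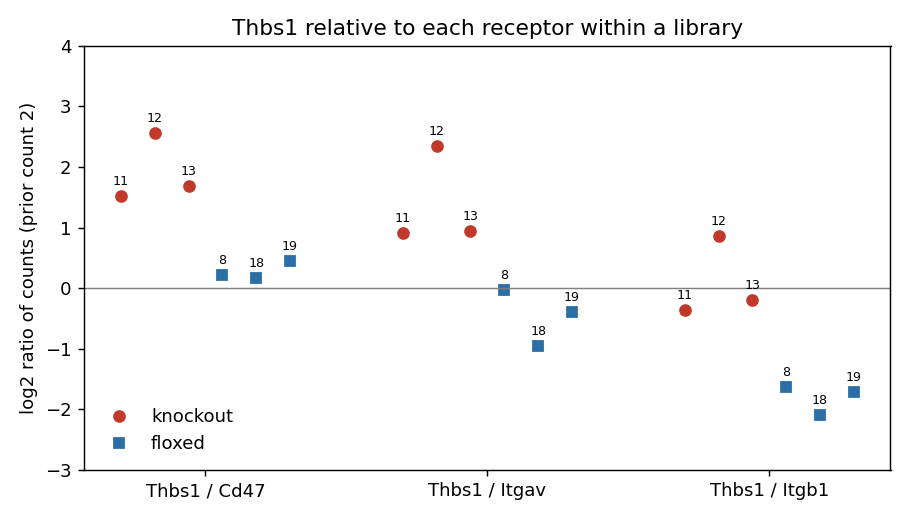
Log2 ratio of Thbs1 counts to the counts of each receptor in the same library, with knockout libraries as circles and floxed libraries as squares. The knockout ratios lie above the floxed ratios for all 3 receptors, and knockout 12 is the highest each time.

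Among the receptors the ratios did not separate the groups. The log2 ratio of Cd47 to Itgb1 was -1.82 ± 0.104 in knockout and -2.09 ± 0.216 in floxed islets (mean ± SD, n = 3 per genotype; exact permutation p = 0.30). That of Itgav to Itgb1, 2 chains that can pair with each other, was -1.29 ± 0.176 and -1.36 ± 0.238 (exact permutation p = 0.60). For Cd47 to Itgav the exact permutation p was 0.50, and each of the 3 was 0.60 after adjustment over the 3 pairs.

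Thbs1 and Cd47 ranked the 6 libraries in the same order, from knockout 12, 13 and 11 down to floxed 19, 8 and 18. Pearson's r of their log2 CPM over the 6 libraries was 0.970, and 36 of the 11034 genes compared with Thbs1 had a higher r. The same full order was shared by 39 of those genes (0.353%), Cd47 among them. Both groups of libraries are pooled in this r, so the group difference is part of it, and it was 0.930 without knockout 12. Itgav and Itgb1 did not follow Thbs1, with r of 0.00759 and 0.0666. They followed each other, with an r of 0.879 over the 6 libraries, which was 0.589 without floxed 8. These values describe 6 libraries and carry no test.

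By the same measure the genes with the pattern most like Thbs1 were Slc41a1, a magnesium transporter (r = 0.994), Lgr4, a receptor for R-spondins (0.992), the scavenger receptor gene Scara3 (0.992), the predicted gene Gm52632 (0.992) and Itgb4, the beta chain that pairs with integrin alpha 6 on laminin (0.991). Itgb4 measured 9.19, 20.6 and 9.24 CPM over knockout 11, 12 and 13, against 3.87, 2.93 and 3.72 CPM over floxed 8, 18 and 19. Like Thbs1 it was highest in knockout 12 and low in all floxed libraries. The choice of these 5 genes rests on single libraries: 0 of them were among the 5 most alike without knockout 12, and 0 without floxed 8. The genes most like Cd47 were Gm43305, Hdgfl2 and Extl3, with r from 0.988 to 0.990. Kpnb1 and Aak1 were among the genes most like Itgav (r of 0.993 and 0.991), and Slmap, Eif4g1 and Fry most like Itgb1 (all 0.991).

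Knockout 12, the library with the highest Thbs1, also stood apart in stromal genes. The sum of 7 fibroblast and stellate cell markers measured 73.2, 311 and 60.1 CPM over knockout 11, 12 and 13, against 76.7, 79.6 and 89.2 CPM over floxed 8, 18 and 19. Col1a1, which encodes a fibrillar collagen chain, reached 44.7 CPM in knockout 12 and 1.06 to 4.78 CPM elsewhere. The 8 measured macrophage markers summed to 157 CPM there and to between 52.3 and 79.3 CPM in the other libraries. None of these markers was at 0 in any library, while 5 of 12 listed fibroblast markers, Pdgfra among them, and 4 of 12 macrophage markers were not analysed here. Knockout 11 and 13 had no excess of either list over the floxed libraries, and their Thbs1 levels of 75.5 and 91.7 CPM were above the floxed maximum of 34.7 CPM. Of 12 platelet markers 1 was measured, with 3.35 to 4.85 CPM across the knockouts and 4.68 to 5.38 CPM across the controls.

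Other lists stood at different levels in the groups. The 21 measured acinar markers summed to between 134451 and 188618 CPM across the knockouts and between 25275 and 89511 CPM across the controls, and the 8 ductal markers to between 888 and 1025 and between 548 and 788 CPM. The 23 measured immediate early genes, transcripts induced fast by growth factors and by tissue handling, summed to between 20427 and 23467 CPM in the knockout libraries, 15422 CPM in floxed 8, and 2534 and 2549 CPM in floxed 18 and 19. Thbs1 in floxed 8 lay between its values in floxed 18 and 19. The 19 measured endothelial markers summed to between 563 and 608 CPM across the knockouts. In floxed 8 they summed to 598 CPM, within that range, and in floxed 18 and 19 to 800 and 774 CPM. The 8 pericyte and smooth muscle markers summed to 111 to 119 CPM in knockout and 134 to 161 CPM in floxed libraries. All 19 and all 8 log2 fold changes were negative, with medians of -0.29 and -0.33, while 49.5% of all genes tested were positive. At an unadjusted p below 0.05 in edgeR stood 8 of the 19 and 4 of the 8, beside 17.9% of all genes, and 0 of either list were called. With the acinar level as a covariate the Thbs1 log2 fold change was 1.73 (edgeR adjusted p = 0.665), and with the immediate early level 2.04 (adjusted p = 0.347). The part of these cells and states in the Thbs1 result was not tested. The endocrine lists, with 11 beta, 6 alpha and 5 delta and PP cell markers, held between 297411 and 428956, between 17343 and 21337, and between 6045 and 7081 CPM in knockout islets. In floxed islets they held between 418439 and 458787, between 16189 and 33665, and between 6351 and 11722 CPM.

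**Figure D4:**
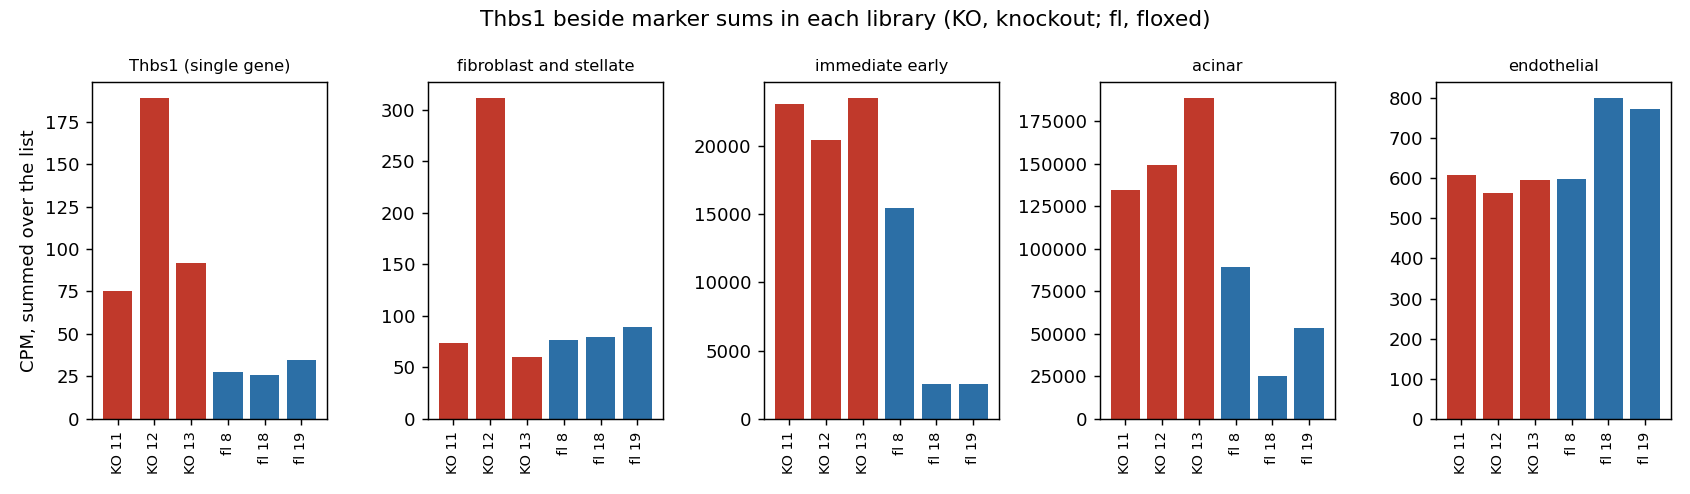
Bars give the CPM of Thbs1 and the summed CPM of the fibroblast, immediate early, acinar and endothelial lists in each library. Knockout 12 is high for Thbs1 and for fibroblast markers, while floxed 8 has 15422 CPM of immediate early genes and 27.8 CPM of Thbs1.

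Of the thrombospondin family, Thbs1 and Thbs3 were measured. Thbs3, a pentameric relative without the type 1 repeats, measured 7.94, 14.2 and 8.79 CPM over knockout 11, 12 and 13, against 8.79, 6.87 and 7.13 CPM over floxed 8, 18 and 19. Its groups overlapped, and only knockout 12 stood out. The log2 fold change was 0.44 (edgeR adjusted p = 0.346), and it was 0.14 without knockout 12.

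Of 10 measured genes for other receptors and binding proteins of thrombospondin-1, 0 passed the edgeR test. At an unadjusted p below 0.05 stood 2, and 1 passed with DESeq2, beside 17.9% and 564 of 11080 over all genes. Positive values were found for 7 and negative for 3, and the median log2 fold change was 0.0731, against -0.00292 over all genes tested, of which 49.5% were positive. Without knockout 12 the list had 4 positive and 6 negative values and a median of -0.0133. Some of its genes are counted again in lists below. These are Itga3, Itga4 and Itga6 among the alpha partners of beta 1, and Vldlr and Lrp8 in the LDL receptor family. Sdc4, a heparan sulfate proteoglycan that assists integrins in adhesion, measured 45.5, 44.1 and 69.9 CPM over knockout 11, 12 and 13, against 33.6, 22.4 and 25.6 CPM over floxed 8, 18 and 19. The groups did not overlap, and its log2 fold change of 0.97 had an edgeR adjusted p of 0.0994, which was 0.0492 without floxed 8. With the acinar and the immediate early covariates its log2 values were 0.27 and 0.54 (adjusted p = 0.832 and 0.450). Ptprj, a receptor phosphatase, had a log2 difference of 0.42 (edgeR adjusted p = 0.131). Calr, the chaperone that also acts with LRP1 at the surface, had the highest level per length, and its CPM averaged 714 ± 131 with the knockout and 654 ± 50.2 without it (mean ± SD, n = 3 per genotype). Cacna2d1, a calcium channel subunit that binds thrombospondins, and Itga4 had log2 fold changes of -0.16 and -0.19 (edgeR adjusted p = 0.439 and 0.466). Cd36, named after its values were seen because its binding stretches are shown, reached 8.73 CPM in knockout 12, while the remaining 5 libraries gave 3.20 to 4.61 CPM.

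The partner chains of both integrins did not pass the test, with 0 of 5 called by edgeR or DESeq2 and 0 at an unadjusted p below 0.05 in edgeR. Of the alpha chains that pair with beta 1, 4 were measured, and the laminin-binding chain Itga3 had the highest level per length, 5.86 CPM per kb in both groups. It stood at 33.5 ± 1.31 CPM with the knockout and 33.5 ± 3.04 CPM without it (mean ± SD, n = 3 per genotype). Itga6 was at 17.3 ± 2.04 and 16.8 ± 4.19 CPM and the fibronectin-binding chain Itga5 at 4.51 ± 0.848 and 4.36 ± 1.40 CPM. Itgb5, the one measured beta partner of alpha v other than beta 1, had a log2 fold change of 0.0208 with a 95% interval from -0.273 to 0.315 (edgeR adjusted p = 0.954). The values depend on the setting: with the immediate early covariate Itga6 was at 0.64 (adjusted p = 0.109), Itga5 at 0.53 and Itgb5 at 0.35, and with the acinar covariate Itga6 was at 0.73. Floxed 8 was the lowest library for Itgb5, Itga3, Itga5 and Itga6, as it was for Itgav and Itgb1.

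Of 8 measured genes for CD47 ligands, its processing and nitric oxide signalling, 0 were called by edgeR or DESeq2. At an unadjusted p below 0.05 in edgeR stood 1, beside 17.9% of all genes. The list had 3 positive and 5 negative values and a median log2 fold change of -0.15. Sirpa, whose product on macrophages and on other cells is the cell-bound ligand of CD47, measured 60.6, 59.7 and 61.0 CPM over knockout 11, 12 and 13, against 65.6, 79.9 and 68.2 CPM over floxed 8, 18 and 19. It was lower in every knockout library, opposite to Cd47, with a log2 difference of -0.24 (edgeR adjusted p = 0.237). Without floxed 8 Sirpa was called (adjusted p = 0.0429), as was Qpctl (-0.36, adjusted p = 0.0273), 2 of 8 called lower beside 5.7% of all genes. Without both knockout 12 and floxed 8 the count was 0 by edgeR. Qpctl, the enzyme that modifies the CD47 amino terminus for SIRPα binding, Ubqln1, and the endothelial nitric oxide synthase gene Nos3 had log2 fold changes of -0.23, 0.15 and -0.28 (edgeR adjusted p from 0.374 to 0.501).

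Genes that connect integrin tails to actin differed among themselves. Of 19 measured, 0 were called by edgeR (5 at an unadjusted p below 0.05, 2 with DESeq2), with 11 positive and 8 negative values and a median log2 fold change of 0.0496. Over all genes 17.9% stood at an unadjusted p below 0.05 in edgeR, and 564 of 11080 were called with DESeq2. Zyx, which encodes the focal adhesion and stress fibre protein zyxin, measured 29.4, 42.3 and 31.8 CPM over knockout 11, 12 and 13, against 22.4, 10.8 and 17.4 CPM over floxed 8, 18 and 19 (log2 fold change 1.04, edgeR adjusted p = 0.131). Its groups did not overlap, and with the acinar level as a covariate the value was -0.0617. Fermt2, the kindlin that binds the tail motif of beta 1, averaged 47.1 ± 2.30 CPM with the knockout and 35.5 ± 2.76 CPM without it (mean ± SD, n = 3 per genotype; log2 fold change 0.41, edgeR adjusted p = 0.0805). Vcl, the gene of vinculin, had a log2 fold change of 0.51 and Parvb, a parvin that acts with integrin-linked kinase, one of -0.52 (edgeR adjusted p = 0.108 and 0.131). Without floxed 8, a fit that called 8.59% of all genes higher and 5.7% lower, Zyx, Fermt2 and Vcl were called higher and Parvb lower. With the acinar covariate the values of Fermt2 and Parvb were 0.15 and -0.24, and 0 of the 19 were called with either covariate (edgeR).

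Although Lrp1 itself was not analysed here, 14 genes for its chaperone, adaptors and ligands were measured. Of these 0 were called by edgeR (4 at an unadjusted p below 0.05, 3 with DESeq2), beside 17.9% of all genes below 0.05 and 564 of 11080 with DESeq2. In this list 10 had positive and 4 negative values, and the median log2 fold change was 0.21. Without knockout 12 the list had 8 positive and 6 negative values and a median of 0.0857. The median was 0.0292 with the acinar covariate and 0.32 with the immediate early covariate. The urokinase receptor gene Plaur measured 3.14, 3.10 and 3.45 CPM over knockout 11, 12 and 13, against 1.50, 1.49 and 1.07 CPM over floxed 8, 18 and 19. Its knockout libraries all lay above the floxed ones, with a log2 fold change of 1.25 and an edgeR adjusted p of 0.0596. Plau, the gene of urokinase, was highest in knockout 12 with 7.51 CPM and had a log2 difference of 2.64 (edgeR adjusted p = 0.138), which was 1.82 without knockout 12 and 0.29 with the acinar covariate. Hspa5, the endoplasmic reticulum chaperone BiP that can also appear at the surface, averaged 3409 ± 413 CPM with the knockout and 1589 ± 578 CPM without it (mean ± SD, n = 3 per genotype; log2 fold change 1.10, edgeR adjusted p = 0.103). With the acinar covariate its log2 value was 0.23 and with the immediate early covariate 0.41, and the values of Lpl were 0.0132 and 0.0527. Lpl, the gene of lipoprotein lipase, had a log2 difference of 0.29 (edgeR adjusted p = 0.240). Without floxed 8, 4 of the 14 were called higher, beside 8.59% of all genes, Plaur, Hspa5 and Lpl among them. Of 11 measured genes of the LDL receptor family 0 were called by edgeR or DESeq2 (0 at an unadjusted p below 0.05 in edgeR), with 5 positive and 6 negative values and a median of -0.0333. Without floxed 8, 2 were called lower beside 5.7% of all genes, and with the immediate early covariate 1 was called higher. Lrp12, Lrp6 and Lrp10 were among those with the smallest p-values of that family, with log2 fold changes of 0.26, 0.27 and -0.13 (edgeR adjusted p from 0.393 to 0.570).

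Among 9 measured matrix partners and proteases of thrombospondin-1, 2 were called higher and 0 lower, beside 0.343% of all genes called higher, and 8 of 9 values were positive with a median of 1.54. That median rests on knockout 12, which alone was high for Dcn, Col1a1 and Mmp2: without it 5 of 9 values were positive and the median was 0.0400. Those called were Vtn, whose product vitronectin is an adhesive ligand of alpha v integrins, and Adamts1, a protease that cleaves thrombospondin-1. Vtn measured 18.7, 27.7 and 22.8 CPM over knockout 11, 12 and 13, against 9.60, 5.91 and 8.04 CPM over floxed 8, 18 and 19. It rose by a log2 value of 1.56 ± 0.20 (standard error, edgeR adjusted p = 0.0316). Adamts1 was at 25.4, 25.5 and 23.1 CPM in the knockout libraries and at 12.2, 7.30 and 6.11 CPM in the floxed ones, a log2 rise of 1.54 ± 0.23 (standard error, edgeR adjusted p = 0.0483). Unlike Thbs1, Adamts1 was nearly level among the knockout libraries. The count of 2 was 0 without knockout 11, 12 or 13 or floxed 19, and 1 without floxed 18. It was also 0 with either covariate, acinar or immediate early, where Vtn had log2 values of 0.76 and 1.12 and Adamts1 0.90 and 0.85. Tgfb1, the cytokine that thrombospondin-1 activates from its latent form, averaged 9.44 ± 0.683 CPM with the knockout and 11.1 ± 0.647 CPM without it (mean ± SD, n = 3 per genotype; log2 fold change -0.23, edgeR adjusted p = 0.353). Mmp2, the gene of a gelatinase made by stromal cells, reached 16.8 CPM in knockout 12 and 0.111 to 0.742 CPM elsewhere, and it did not pass (edgeR adjusted p = 0.361), with a log2 value of 0.0898 without knockout 12. Of the 23 immediate early genes 1 was called, Fosl2, an AP-1 subunit (log2 fold change 1.80, edgeR adjusted p = 0.0239), beside 0.343% of all genes called higher. All 23 had positive values, against 49.5% of all genes tested. Without floxed 8, 22 of the 23 were called higher, beside 8.59% of all genes in that fit. With the acinar covariate 20 of the 23 values were negative with a median of -0.49. Without any one of knockout 11, 12 and 13 or floxed 18 the count was 0.

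**Figure D5:**
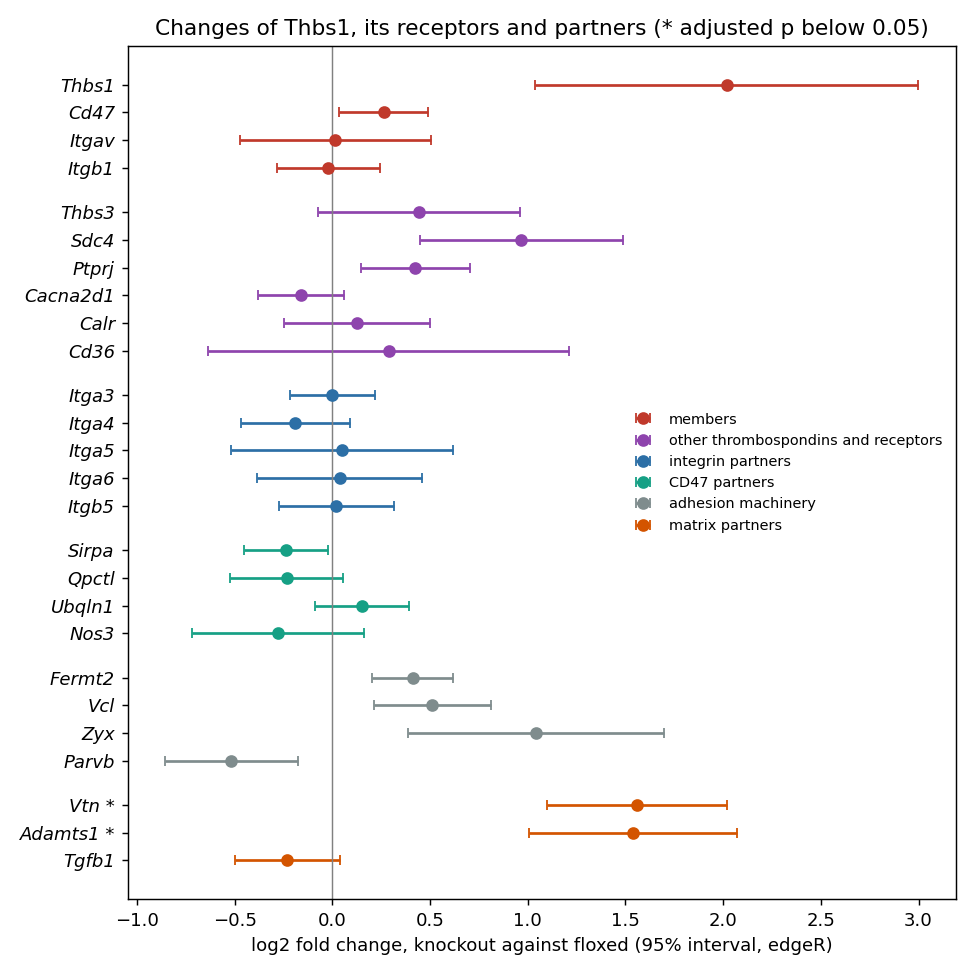
Log2 fold changes of knockout against floxed islets with 95% intervals (edgeR, n = 3 each), by group of genes, with asterisks at an adjusted p below 0.05. Thbs1 lies at 2.02, the integrin chains lie between -0.19 and 0.0484, and Vtn and Adamts1 are the genes with asterisks.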

How the data were processed

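Islet RNA was isolated with TRIzol, and libraries were read from both ends (DNBSEQ-T7), per the labels' protocols. The submitters' processing notes name fastp, HISAT2, StringTie and the build mm10. Versions, and whether counting used strand, are not given in the sources. The deposited table of the authors gives estimated counts for each gene without normalization, with totals from 18470720 to 18957444 per library. Of 11106 genes 1422 held a value that was not whole, and 0 of these were Thbs1 or its receptors.

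Counts were rounded. The filter filterByExpr (count 10, total 15) kept 11080 genes. TMM factors ran from 0.924 to 1.11. The genotypes were tested by edgeR 4.0.16 in R 4.3.3, in its quasi-likelihood form with robust estimates, adjusted by Benjamini-Hochberg over all genes tested, at a threshold of 0.05. At this depth 1 CPM is about 18 to 19 counts. A standard error is the fold change divided by the square root of its F statistic. Log2 CPM carry a prior count of 2. In simulated data of this comparison, 87% of 100 genes with a set log2 change of 1 and 98% of 100 with one of 2 were recovered, and 12 of 197 calls were of unchanged genes. The simulation drew each gene independently at its fitted dispersion, without shifts shared by many genes of a library. Its rates therefore do not describe recovery in libraries with such shifts. No replicate pair matched within sampling noise, since the closest pair had a mean chi-square of 20.3. Libraries are numbered mice, with no litter or batch named in the labels.

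Thbs1, its receptors and the lists were chosen with earlier results of these data known. The text names Thbs1 and its receptors, in each list up to 4 genes of smallest p and the most abundant receptor and integrin genes, and the 5 or 3 genes of highest Pearson correlation at a mean of at least 1 CPM. Which of these to name was settled with values in view, and a few items are not reported here. The ratio test was planned over 4 receptors and run over the 3 measured. Exon lengths (union over transcripts), overlaps and transcript sequences come from GENCODE M21 and gene positions from RefSeq, both GRCm38, the assembly of mm10, matched by symbol. Peptides were searched in frame, and RNAfold 2.7.2 folded 20 bases on each side of a hexamer. Alternatives were RLE scaling, library totals, acinar genes removed before scaling, no filter, a filter at 1 CPM on average, limma-voom (limma 3.58.1), DESeq2 1.42.0, no robust dispersion, the acinar or immediate early level as a covariate and each library left out. Leaving out knockout 12 and floxed 8 together was added after seeing the data.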

Additional observations from a re-analysis of the deposited data

How the results depend on the processing

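Thbs1 kept a positive log2 fold change in every alternative run, from 1.47 to 2.25. It passed the threshold with DESeq2 (2.01), without knockout 12 (1.51), and without both knockout 12 and floxed 8 (1.47, edgeR adjusted p = 0.00193), the last chosen after seeing the data. With single libraries left out it ran from 1.51 to 2.25. Cd47 stayed positive and did not pass in any, from 0.14 to 0.32 (0.19 to 0.32 with single libraries left out). The Thbs1 ratios stayed positive, with single libraries left out from 1.33 to 1.85 for Cd47, 1.38 to 2.10 for Itgav and 1.54 to 2.15 for Itgb1. Values near 0 changed sign. With library totals, which lower the median of all genes to -0.0919, Itgav was at -0.0991, Itga6 at -0.0645, Itga5 at -0.0409 and Itgb5 at -0.0747. With the acinar covariate Itgb1 was at 0.26, Itga3 at 0.28, Cacna2d1 at 0.12, Sirpa at 0.0799, Qpctl at 0.14, Nos3 at 0.13, Zyx at -0.0617 and Lrp10 at 0.19. With the immediate early covariate Itgb1 was at 0.31, Itga3 at 0.21, Qpctl at 0.14, Nos3 at 0.00604 and Lrp10 at 0.16, and with limma-voom Itga3 was at 0.000993. Without both knockout 12 and floxed 8, Itgav was at -0.12, Itga6 at -0.25, Itga5 at -0.29, Itgb5 at -0.17 and Cd36 at -0.41. With single libraries left out, Itgav ran from -0.20 to 0.17, Itgb1 from -0.14 to 0.0567, Calr from -0.0334 to 0.22, Itga3 from -0.0776 to 0.0527, Itga6 from -0.15 to 0.19, Itga5 from -0.12 to 0.34, Itgb5 from -0.0989 to 0.14 and Cd36 from -0.37 to 0.52. Both covariates separate the groups without overlap, so a shift with either cannot be told apart from genotype. The cause of the shifts listed here was not tested.

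The number of genes called over the whole table was 45, and it was 564 with DESeq2, 0 with the acinar covariate (958 at an unadjusted p below 0.05 in edgeR), 107 with the immediate early covariate, 1393 without both knockout 12 and floxed 8, and from 0 to 1584 with single libraries left out (0 without knockout 11 or 13, with 1861 and 1204 at an unadjusted p below 0.05 in edgeR, 8 without knockout 12, 1584 without floxed 8, 18 without floxed 18 and 16 without floxed 19). No paired analysis was possible because the groups share no mouse numbers. Alternatives for Lrp1 were not run, since it was not analysed here. With 3 mice a group, the 95% intervals of the receptors ran from -0.47 to 0.50 for Itgav, from 0.0329 to 0.49 for Cd47 and from -0.28 to 0.24 for Itgb1.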
